A study of Lactuca sativa with 6 samples.

Results

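Peptide signalling in lettuce leaves was followed through 6 assembled transcript clusters that the study named as receptors of, or precursors of, secreted peptides, out of 39253 clusters in the count table. The 3 receptors were PXY (Cluster-15809.1007), EMS1/MSP1 (Cluster-11176.0) and PSKR1 (Cluster-10341.0). The 3 precursors were those of an EPF/EPFL peptide (Cluster-15809.11964), a CIF peptide (Cluster-17059.0) and a PNP, or plant natriuretic peptide (Cluster-6996.0). The members were picked by measured values. PXY, EMS1/MSP1, PSKR1 and EPF/EPFL came from the study's list of clusters that differed between the 2 extracts, and CIF and PNP from its list of clusters that differed from the control under both extracts. The comparison that chose a cluster is therefore given below as a description without a test, and the other comparisons are tested. These tests share libraries with the comparison that chose the cluster, so they are not separate evidence.

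The seedlings of *Lactuca sativa* came from a nursery, were set in pumice at the stage of 4 true leaves, 10 to a box, and were left to acclimatize for 6 days. The control seedlings (LsCK) then received 500 mL of Hoagland solution, a mineral nutrient solution, and the treated seedlings received the same volume with an extract of the green microalga *Chlorella vulgaris* (LsCv) or *Scenedesmus quadricauda* (LsSq) at 1 mg of organic carbon per litre. Leaves were taken 4 days later, and each group had 2 RNA libraries. The labels state 5 biological replicates per treatment but do not say which boxes or plants the 2 libraries held. Every p-value therefore rests on the spread between such libraries, pooled over groups and in part over clusters. That spread may be technical. The tissue label was not checked against leaf markers, because the count table pairs no cluster with a gene name.

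Secreted peptides are short-range signals of plants. They are cut from longer precursors or folded from small cysteine-rich proteins, leave the cell, and are bound by receptor kinases whose outer domain is usually built of leucine-rich repeats. In leaves such signals are known to set the spacing of stomata, the division of vascular stem cells, the expansion of cells and the response to microbes. The roles given here come from *Arabidopsis thaliana* unless another species is named.

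The libraries held 26408716 to 35184764 expected counts. All 6 clusters had enough counts to be tested, among 28157 clusters that did. Levels are in counts per 1000000 counts of the library (CPM), scaled between libraries with TMM factors of 0.83 to 1.09, and are not corrected for transcript length, so they are compared between libraries and not between clusters. A floor of 3 counts corresponded to 0.086 to 0.11 CPM. Libraries of a group differed, and the median size of the log2 ratio between replicates over all tested clusters was 0.50 in LsCK, 0.47 in LsCv and 0.27 in LsSq. The second LsCK library held 1943 clusters counted in no other library, against 100 to 248 in each of the others. The cluster for a ribosomal RNA small subunit methyltransferase, which the study used as its reference gene for qRT-PCR, lay between 15.7 and 20.5 CPM in the 6 libraries.

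**Figure D1:**
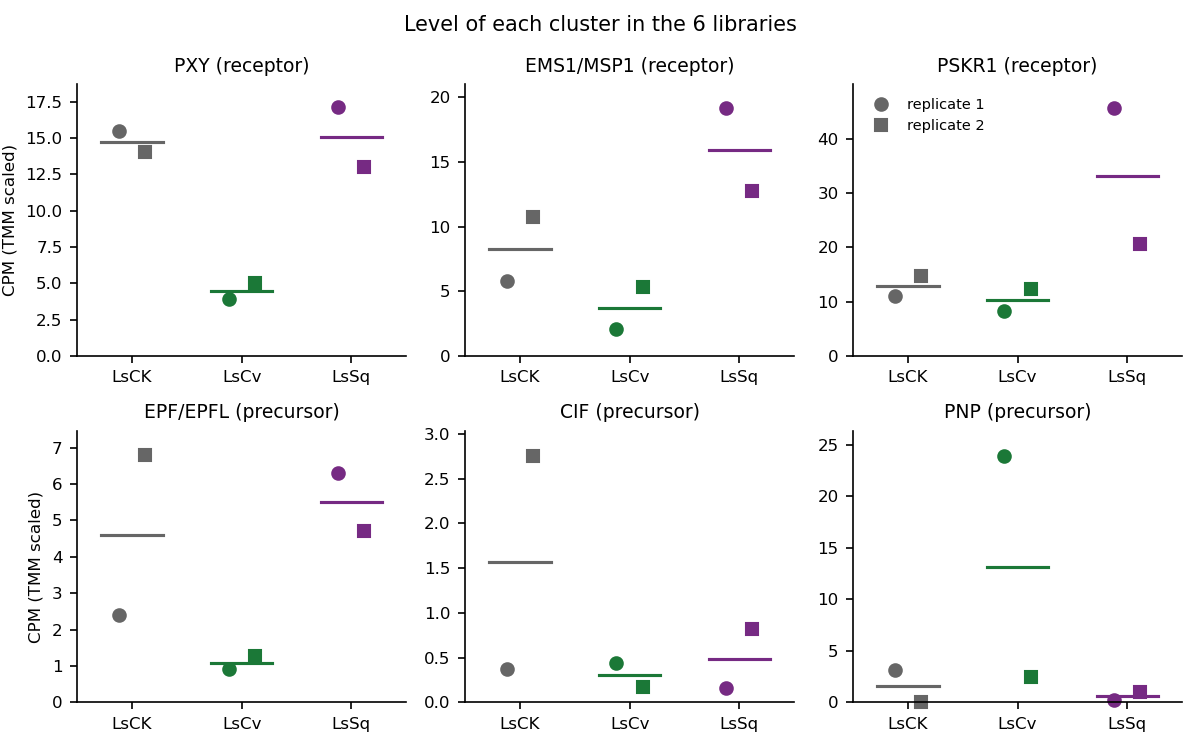
Level of each of the 6 clusters in CPM, on axes from 0 that differ between panels, in the 2 libraries of LsCK, LsCv and LsSq (circle, replicate 1; square, replicate 2; line, group mean). Both LsCv libraries lie at 5.003 CPM or lower for PXY, the 2 LsSq libraries stand at 45.7 and 20.5 CPM for PSKR1, and a single LsCv library reaches 23.9 CPM for PNP.

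PXY is a leucine-rich repeat receptor kinase that binds TDIF, a CLE peptide made in the phloem, and keeps the cells of the vascular cambium dividing. Its cluster was measured at 15.5 and 14.0 CPM in LsCK, 3.88 and 5.003 CPM in LsCv, and 17.1 and 12.98 CPM in LsSq. Both LsCv libraries lay below the other 4 libraries, and the LsCK and LsSq libraries overlapped. The mean level was 14.7 ± 1.0 CPM in LsCK, 4.44 ± 0.79 CPM in LsCv and 15.1 ± 2.9 CPM in LsSq (SD, n = 2 each). The LsCv mean was 0.29 of the level in the first LsCK library and 0.32 of that in the second, so the distance from the control was nearly the same whichever control library was used.

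In the test of LsCv against LsCK, PXY had a log2 fold change of -1.73 (SE 0.33), with an unadjusted p of 0.0013 and an adjusted p of 0.53 by edgeR's quasi-likelihood test with Benjamini-Hochberg adjustment. It therefore did not pass the threshold of 0.05 over all clusters. With each library left out in turn, its log2 fold change stayed between -1.93 and -1.54, and its unadjusted p was under 0.05 in all 16 alternatives. The cluster passed with DESeq2 on all libraries, at an adjusted p of 0.0023, and over the 16 alternatives the adjusted p ran from 0.0023 to 0.98, the highest without the second LsCK library. In LsSq against LsCK its log2 fold change was 0.03 (SE 0.32, adjusted p = 0.99 by edgeR). That value took either sign when a library was left out, from -0.18 to 0.21. Between the extracts, the comparison that chose it, PXY was 3.38-fold lower in LsCv than in LsSq (log2 fold change -1.76, SE 0.33).

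PSKR1 is the main receptor of phytosulfokine, a tyrosine-sulfated peptide known for cell expansion and for damping immune responses. Its cluster was measured at 11.0 and 14.7 CPM in LsCK, 8.35 and 12.3 CPM in LsCv, and 45.7 and 20.5 CPM in LsSq. Both LsSq libraries stood above the other 4, with the first at 2.23 times the second, and the LsCv and LsCK libraries overlapped. The means were 12.9 ± 2.7 CPM in LsCK, 10.4 ± 2.8 CPM in LsCv and 33.1 ± 17.8 CPM in LsSq (SD, n = 2 each). For PSKR1 the group whose libraries lay apart from the control was therefore LsSq, where for PXY it was LsCv.

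In LsSq against LsCK, PSKR1 had a log2 fold change of 1.37 (SE 0.45), an unadjusted p of 0.021 and an adjusted p of 0.96 by edgeR's quasi-likelihood test. The value was 0.68 without the first LsSq library and 1.82 without the second, so that the size, though not the direction, depended on 1 library. In LsCv against LsCK the log2 fold change was -0.31 (SE 0.45, adjusted p = 0.84 by edgeR). Between the extracts, the comparison that chose it, PSKR1 was 3.2-fold lower in LsCv (log2 fold change -1.68, SE 0.46). Leaving out the first LsSq library brought that difference to -1.0.

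EMS1, and its rice counterpart MSP1, is a leucine-rich repeat receptor kinase of the anther, where it binds the small secreted protein TPD1 and is needed to form the tapetum. The cluster that the study named after both genes was counted in all 6 leaf libraries, at 5.81 and 10.7 CPM in LsCK, 2.07 and 5.34 CPM in LsCv, and 19.1 and 12.8 CPM in LsSq. The 3 groups did not overlap, with LsCv lowest, LsCK between and LsSq highest, an order that 4.6% of all tested clusters had. Choosing the cluster for lying lower in LsCv than in LsSq favoured this order, so nothing is read from that share. The neighbours in this order were close, since the higher LsCv library and the lower LsCK library differed by less than the 2 LsCK libraries did.

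EMS1/MSP1 had a log2 fold change of -1.15 (SE 0.56, adjusted p = 0.59) in LsCv against LsCK and of 0.95 (SE 0.55, adjusted p = 0.96) in LsSq against LsCK, both by edgeR's quasi-likelihood test. Leaving out a library gave -2.0 to -0.62 in the first comparison and 0.54 to 1.45 in the second. The LsSq mean of 16.0 CPM was 2.75 times the first LsCK library and 1.49 times the second. Between the extracts, which chose it, the cluster was 4.3-fold lower in LsCv (log2 fold change -2.10, SE 0.57).

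The EPF/EPFL family comprises small cysteine-rich peptides, several of which act through the ERECTA receptor kinases and the co-receptor TMM to restrain or promote the formation of stomata. The study did not say which family member the cluster encodes. Its precursor was measured at 2.40 and 6.81 CPM in LsCK, 0.92 and 1.27 CPM in LsCv, and 6.29 and 4.70 CPM in LsSq. Both LsCv libraries lay below the other 4, while both LsSq libraries fell between the 2 LsCK libraries, which differed 2.83-fold. The means were 4.61 ± 3.1 CPM in LsCK, 1.10 ± 0.24 CPM in LsCv and 5.5 ± 1.1 CPM in LsSq (SD, n = 2 each).

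In LsCv against LsCK, EPF/EPFL had a log2 fold change of -2.06 (SE 0.61), an unadjusted p of 0.013 and an adjusted p of 0.53 by edgeR's quasi-likelihood test. Without the second LsCK library the log2 fold change was -1.14, and without the first it was -2.62. In LsSq against LsCK it was 0.26 (SE 0.58, adjusted p = 0.98 by edgeR), and its sign depended on which control library was kept, at -0.34 without the first and 1.19 without the second. Between the extracts, which chose it, the cluster was 5.0-fold lower in LsCv (log2 fold change -2.32, SE 0.61), and this value ranged only from -2.57 to -2.08 when libraries were left out.

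For the 4 clusters chosen between the extracts, the comparisons with the control showed on which side each group lay. In LsCv against LsCK all 4 log2 fold changes were negative, with a median of -1.44, where the median over all tested clusters was -0.03. At an adjusted p of 0.05 edgeR called 0 of 4, and 0.0% of all tested clusters. At an unadjusted p under 0.05 it gave 2 of 4 (PXY and EPF/EPFL), against 8.73% of all tested clusters, and DESeq2 on all libraries called 1 of 4 (PXY), against 1.53%. Libraries of the 2 groups did not overlap for 3 of 4, which was the case for 36.6% of all tested clusters. Choosing clusters with low levels in LsCv favoured low p-values and libraries apart here. Nothing is therefore read from these counts, or from those below, against the shares. The unadjusted count was 1 of 4 (PXY) without the second LsCK library, where the share of all clusters was 4.33%, and also 1 of 4 (PXY) without the first LsCv library, where it was 4.97%. It was 3 of 4 (PXY, EMS1/MSP1 and EPF/EPFL) without the first LsCK library, where the share was 18.7%, and without the second LsCv library, where it was 11.0%.

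In LsSq against LsCK all 4 log2 fold changes were positive, with a median of 0.60 against -0.00 over all tested clusters. Again edgeR called 0 of 4 at an adjusted p of 0.05, and 0.0% of all tested clusters, and DESeq2 on all libraries also called 0 of 4, against 0.477%. At an unadjusted p under 0.05 edgeR gave 1 of 4 (PSKR1), against 4.65%, and 0 of 4 without the first LsSq library, where the share was 0.852%, or without the first LsCK library, where it was 7.81%. Libraries did not overlap for 2 of 4 (EMS1/MSP1 and PSKR1), against 38.6% of all tested clusters. These clusters were chosen for lying lower in LsCv than in LsSq, so a negative value on one side and a positive one on the other was favoured by the choice. Low p-values and libraries apart were favoured too, so nothing is read from the counts against the shares in either comparison. The 2 comparisons also share the LsCK libraries, and the 4 clusters are not replicates of one another. In bulk leaf RNA, fewer cells of a type and less RNA per cell cannot be told apart.

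**Figure D2:**
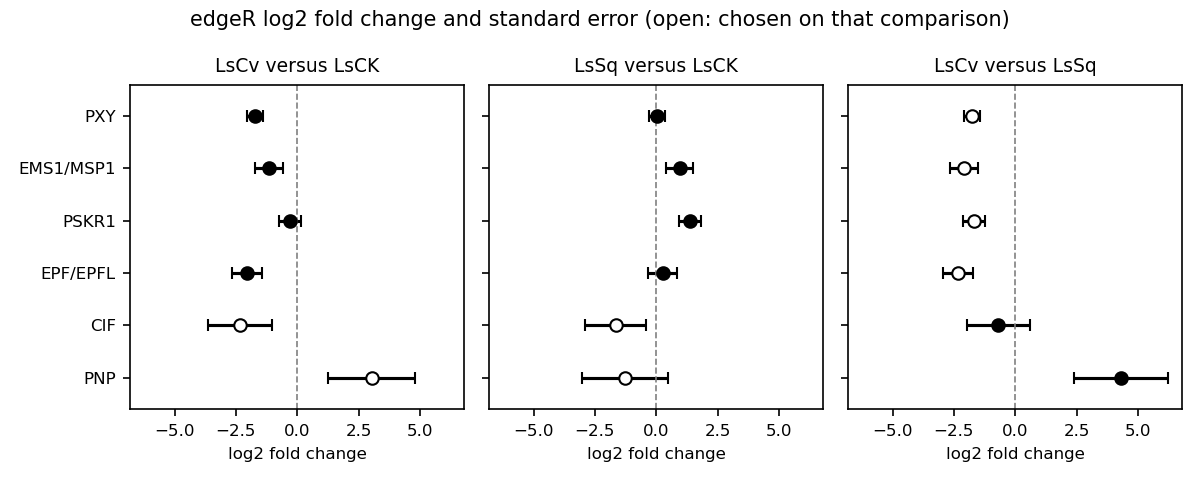
Log2 fold change of each cluster by edgeR (points) with its standard error (bars) in the 3 comparisons, where open points mark the comparison on which the cluster was chosen. PXY at -1.73 and EPF/EPFL at -2.06 lie farthest below 0 among the filled points of LsCv against LsCK, PSKR1 at 1.37 lies farthest above 0 in LsSq against LsCK, and the bars of CIF and PNP are the longest.

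CIF peptides are tyrosine-sulfated signals made in the root stele that are sensed by the receptor kinase SGN3 (also called GSO1) and are needed to close the Casparian strip of the endodermis. The CIF precursor cluster was scarce in these leaves, with 13 and 79 counts in LsCK, 12 and 5 in LsCv, and 5 and 24 in LsSq. In CPM this was 0.37 and 2.76 in LsCK, 0.44 and 0.17 in LsCv, and 0.16 and 0.82 in LsSq. The second LsCK library stood above all others, while the first lay within the range of the treated libraries. The replicates of LsCK differed 7.42-fold and those of LsSq 5.02-fold.

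CIF was chosen on both comparisons with the control, where its log2 fold change was -2.35 (SE 1.30) for LsCv and -1.66 (SE 1.26) for LsSq. Without the second LsCK library these values became -0.30 and 0.39, and without the first they became -3.16 and -2.51. The study's values for CIF lay nearer to those without the first LsCK library than to those with both, and the reason was not tested. The LsCv mean was 0.82 of the first LsCK library and 0.11 of the second, and the LsSq mean was 1.32 and 0.18 of them. The comparison not used to choose it, LsCv against LsSq, gave a log2 fold change of -0.68 (SE 1.28, adjusted p = 0.81 by edgeR's quasi-likelihood test), with overlapping libraries. It ranged from -1.50 to 0.88 when a library was left out, so no direction between the extracts was measured.

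Plant natriuretic peptides are secreted proteins related to expansins known for changing the movement of water and ions in plant tissue. The PNP precursor cluster had 111 and 0 counts in LsCK, 646 and 74 in LsCv, and 8 and 31 in LsSq. In CPM this was 3.18 and 0 in LsCK, 23.9 and 2.47 in LsCv, and 0.26 and 1.06 in LsSq. The count of 0 in the second LsCK library allows a level of up to 0.10 CPM, by counting error alone. The first LsCv library exceeded the second 9.67-fold, and the second LsCv library lay below the first LsCK library.

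PNP was likewise chosen on both comparisons with the control, where its log2 fold change was 3.04 (SE 1.77) for LsCv and -1.28 (SE 1.76) for LsSq. The groups overlapped in both. The study listed PNP as higher than the control under both extracts, so the LsSq value here, with both LsCK libraries, had the opposite sign. Without the first LsCK library the LsSq value was at least 2.65, a lower bound. The LsCv mean was 4.15 times the first LsCK library and at least 126-fold higher than the second, taken at its floor of 3 counts. The LsSq mean was 0.21 of the first LsCK library and at least 6.28-fold higher than the second, so the direction for LsSq depended on the control library used. Only the second LsCK library gave the direction that the study listed. Without the first LsCv library the log2 fold change of LsCv against LsCK was 0.66.

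Between the extracts, the comparison not used to choose it, both LsCv libraries lay above both LsSq libraries for PNP. The log2 fold change was 4.32 (SE 1.91), with an unadjusted p of 0.060 and an adjusted p of 0.33 by edgeR's quasi-likelihood test. DESeq2 on these 4 libraries alone gave an adjusted p of 0.00025, whereas edgeR on the same 4 libraries gave 0.15, and over the 16 alternatives the adjusted p ran from 0.00025 to 0.87. Without the first LsCv library the log2 fold change was 1.94. For the precursors chosen against the control, edgeR called 0 of 2 in LsCv against LsSq, as it did 0.0% of all tested clusters, and gave 0 of 2 at an unadjusted p under 0.05, against 16.0%. The unadjusted count was 1 of 2 (PNP) with edgeR on these 4 libraries, where the share of all clusters was 21.6%, with no filter on low counts (11.7%), without the first LsCK library (18.5%) and without the second (19.2%). DESeq2 on all libraries called 0 of 2, against 5.5%, and on the 4 libraries 1 of 2 (PNP), against 10.8%. Libraries did not overlap for 1 of 2, against 55.4% of all tested clusters. The study listed both precursors as shifted in the same direction under both extracts, which favoured alike levels in LsCv and LsSq. Nothing is therefore read from these counts against the shares.

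**Figure D3:**
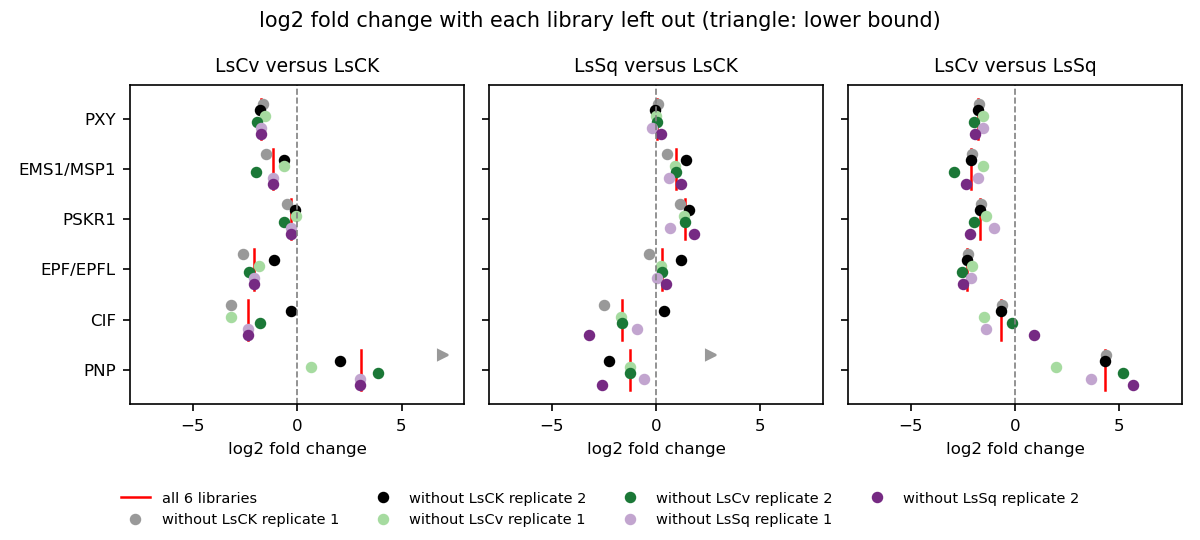
Log2 fold change of each cluster in the 3 comparisons with all 6 libraries (red line) and with each library left out in turn (points, coloured by the library left out; triangles are lower bounds, used where the only LsCK library left was at 0). The points of PXY stay between -1.93 and -1.54 in LsCv against LsCK, those of CIF in LsSq against LsCK run from -3.23 to 0.39, and those of PNP in LsCv against LsCK run from 0.66 to 6.97.

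The 6 clusters thus varied among libraries in different ways. After centring log2(CPM + 0.5) on each cluster's mean over the 6 libraries, EMS1/MSP1 and EPF/EPFL were the nearest pair, with a root mean square difference of 0.38, followed by EMS1/MSP1 and PSKR1 at 0.43 and PXY and EPF/EPFL at 0.45. Of the tested clusters, 448 lay nearer to EMS1/MSP1 than EPF/EPFL did. These pairs lie among the clusters chosen for being lower in LsCv than in LsSq, so a like pattern was favoured by the choice. PNP was 2.27 to 2.72 from each of the other 5. The first LsCv library lay outside the range of the other 5 libraries for 5 of 6 clusters, as the lowest for PXY, EMS1/MSP1, PSKR1 and EPF/EPFL and the highest for PNP. Over all tested clusters that library lay outside for 48.5%. The first LsSq library did so for 4 of 6 clusters, against 28.4%, and the first LsCK library for 0 of 6, against 22.6%. Since 4 of the 6 were chosen for lying lower in LsCv than in LsSq, a lowest LsCv library and a highest LsSq library were favoured by the choice, and nothing is read from these counts against the shares over all clusters. The part that these single libraries had in the differences was tested only by leaving them out.

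The nearest clusters by the same measure, among 25 that the study named and over 6 libraries, were often the same. PINOID2, named after a protein kinase that directs auxin carriers, was nearest to EMS1/MSP1 (0.19), EPF/EPFL (0.30) and PXY (0.40) and second for PSKR1 (0.39). LOG3, an enzyme that activates cytokinins, was nearest to PSKR1 (0.35) and second for EMS1/MSP1 (0.31). An F-box cluster was second for PXY (0.57), and CKI1, a histidine kinase, was second for EPF/EPFL (0.35). The F-box cluster was scarce, with 0 counts in both LsCv libraries and at most 1.12 CPM in the others. As many as 2978 of the tested clusters lay nearer to PXY than it did. PINOID2, LOG3 and CKI1 were on the study's list of differences between the extracts, so a like pattern was favoured by how they were picked. For EMS1/MSP1, 13 of the tested clusters lay nearer than PINOID2, and for PXY 507 did.

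CIF was nearest to THESEUS 1 (0.32) and to BSK, a brassinosteroid signalling kinase (0.40), and in both CIF and THESEUS 1 the second LsCK library was the highest. THESEUS 1 and BSK were on the same list of the study as CIF, so a like pattern was favoured by the choice. Of the tested clusters, 57 lay nearer to CIF than THESEUS 1 and 186 nearer than BSK. PNP was nearest to YUCCA10 (0.91) and YUCCA5 (0.97), flavin monooxygenases of auxin synthesis. Both YUCCA clusters were also picked by measured values, as higher in LsCv than in LsSq. The values of PNP also varied most, with a root mean square of 1.82 about their own mean, against 0.77 to 0.95 for the other members, and 164 of the tested clusters lay nearer to PNP than YUCCA10.

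A further 13 clusters that the study named as receptors of these kinds were set beside the 6. They were 8 with leucine-rich repeats and 5 of the CrRLK1L family, malectin-domain kinases that include FERONIA, the receptor of RALF peptides, and THESEUS 1, a sensor of cell wall damage. The study chose them on the comparisons with the control, and the list was held in part, so counts against the control are a description. The leucine-rich repeat clusters had a median log2 fold change of 1.18 in LsCv and 1.09 in LsSq against LsCK, with 6 of 8 positive in each. The CrRLK1L clusters had medians of -1.25 and -1.34, with 2 of 5 positive in each.

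The second LsCK library was outside the range of the other 5 libraries in 13 of 13 of these clusters, above them in 5 and below them in 8, where it was outside in 38.8% of all tested clusters. The first LsCK library was outside in 0 of 13, against 22.6%. A control library at an extreme was favoured by choosing clusters that differed from the control under both extracts. Nothing is therefore read from these counts against the shares. That choice does not by itself say which control library is the extreme one. The study's values for THESEUS 1 and FERONIA lay nearer to those against the second LsCK library alone than to those against both. Against it alone the log2 ratios were -2.495 (LsCv) and -2.142 (LsSq) for THESEUS 1, and 1.982 and 1.842 for FERONIA. How the study's values arose was not tested. The second LsCK library was outside for 3 of the 6 members, highest for EPF/EPFL and CIF and lowest for PNP. Without it, an alternative added after its values were seen, all 13 log2 fold changes were smaller in size in both comparisons. The median of the leucine-rich repeat clusters became 0.36 in LsCv and 0.42 in LsSq, and that of the CrRLK1L clusters changed sign, to 0.56 and 0.65.

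TDR is another name of PXY in Arabidopsis, and the study gave it to a second cluster (Cluster-15809.12156). The TDR cluster was measured at 7.15 and 25.5 CPM in LsCK, 3.47 and 9.51 CPM in LsCv, and 7.14 and 9.88 CPM in LsSq. Its 3 groups overlapped, with the second LsCK library above all others, whereas the PXY cluster had both control libraries close together. In LsCv against LsSq, the comparison not used to choose it, TDR had a log2 fold change of -0.39 (SE 0.70, adjusted p = 0.80 by edgeR). How reads of such close relatives were shared between assembled clusters was not tested. PXY was the only one of the 6 members with a fractional expected count, 380.95 in the second LsSq library. In that library TDR also had a fractional count, 290.05, and the other counts of both clusters were whole.

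Among the CrRLK1L kinases, THESEUS 1 (Cluster-15809.12001) was measured at 9.44 and 65.5 CPM in LsCK, 15.3 and 7.94 CPM in LsCv, and 12.6 and 17.1 CPM in LsSq. Its high value in the second LsCK library had no match in the other 5. FERONIA (Cluster-18385.0) was measured at 4.15 and 1.96 CPM in LsCK, 2.77 and 12.7 CPM in LsCv, and 2.54 and 11.5 CPM in LsSq. In LsCv the second library was 4.57 times the first and in LsSq 4.51 times, and the first of each lay between the 2 controls. HERK 1 (Cluster-15809.11403), a growth-promoting relative, is named because its mean CPM, which also depends on transcript length, was the highest of the 13. It was measured at 113 and 45.3 CPM in LsCK, 212 and 144 CPM in LsCv, and 194 and 167 CPM in LsSq. All 4 treated libraries of this HERK 1 cluster stood above both controls.

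A further cluster also carried the name HERK 1 and another the name FERONIA, and both had log2 fold changes of the opposite sign against the control. The other HERK 1 cluster (Cluster-11850.0) was measured at 0.92 and 7.30 CPM in LsCK, 0.92 and 0.77 CPM in LsCv, and 0.75 and 1.60 CPM in LsSq, with log2 fold changes of -2.27 and -1.80 where the first HERK 1 cluster had 1.17 and 1.19. The other FERONIA cluster (Cluster-15809.3558) was measured at 0.52 and 3.14 CPM in LsCK, 1.04 and 0.50 CPM in LsCv, and 0.95 and 0.31 CPM in LsSq, with log2 fold changes of -1.25 and -1.53 where the first FERONIA cluster had 1.34 and 1.2. In both of these clusters the second LsCK library was the highest.

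In LsCv against LsSq, a comparison not used to choose these receptors, edgeR called 0 of 13 at an adjusted p of 0.05, and 0.0% of all tested clusters. At an unadjusted p under 0.05 it gave 0 of 13, against 16.0%. The study chose these receptors for the same direction against the control under both extracts. That choice favoured alike levels in LsCv and LsSq, so nothing is read from these counts against the shares. The median log2 fold change was -0.18, against -0.06 over all tested clusters. HERK 1 had -0.02 (SE 0.48), FERONIA 0.14 (SE 0.92) and THESEUS 1 -0.35 (SE 0.81), with adjusted p of 0.99, 0.95 and 0.85 by edgeR. A p that misses the threshold does not show that the extracts acted alike on these clusters.

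**Figure D4:**
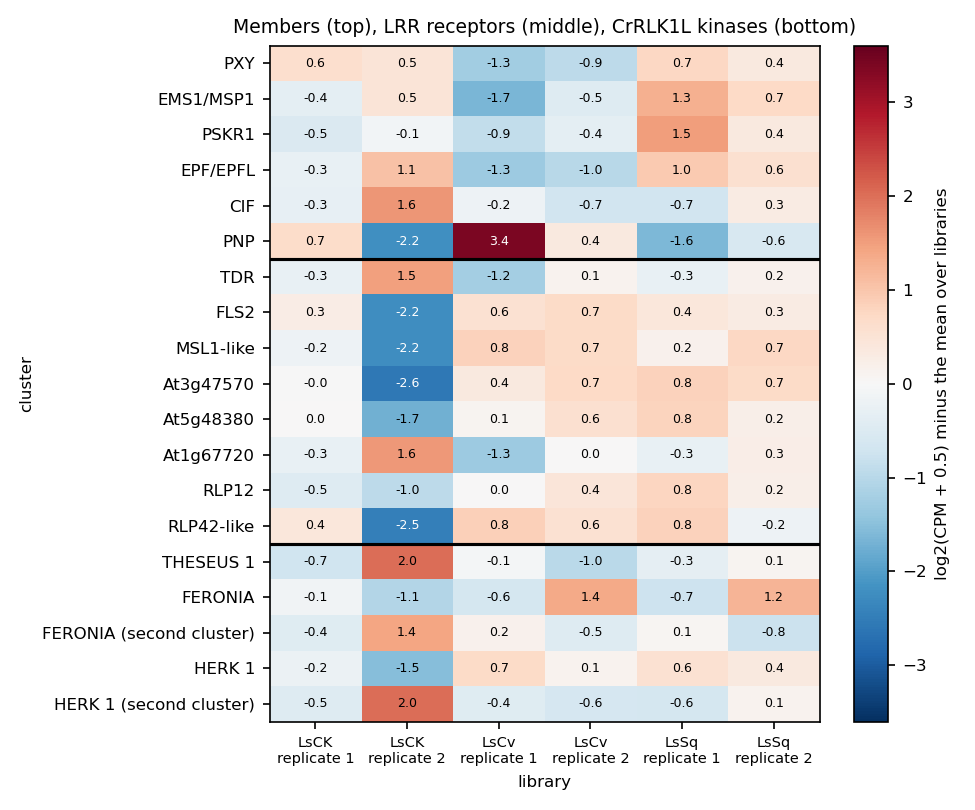
Centred log2(CPM + 0.5) in each of the 6 libraries (columns) for the 6 members (top), 8 leucine-rich repeat receptors (middle) and 5 CrRLK1L kinases (bottom), where each number is the difference from the cluster's own mean over libraries. The second LsCK library is the highest or the lowest library in all 13 receptor rows, and the first LsCv library is the lowest in 4 of the 6 member rows.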

How the data were processed

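Leaf RNA of 2 libraries each of LsCK, LsCv and LsSq was enriched for poly-A RNA and sequenced. Per the methods, reads were assembled de novo with Trinity, transcripts were grouped with Corset, and reads per cluster were counted with RSEM. The submitters' processing notes name CASAVA 1.8, RSEM and DESeq2 1.26.0. The authors deposited expected counts per cluster and library, not normalized. Cluster names came from the study's lists. How strand was handled is not given in the sources used here.

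The expected counts were rounded and tested with edgeR 4.0.16 in R 4.3.3 (filterByExpr, TMM, quasi-likelihood test, all 6 libraries in 1 fit, prior count of 0.125 for fold changes). P-values were adjusted by Benjamini-Hochberg over 28157 clusters at a threshold of 0.05. For a single cluster, permuting the 4 libraries of a comparison (exact, two-sided) gives no p below 0.333. Alternatives were DESeq2 1.42.0 (on all libraries and on the groups compared), other scaling, other filters on low counts (none, or a mean count of at least 10), edgeR on the groups compared, robust estimation, a prior count of 2, a replicate block, and leaving out each library. The tests were tried on simulated data. Likeness used log2 CPM with a pseudocount of 0.5.

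The members and lists were chosen with earlier results of these data known. The text names all 6 members, 4 related receptors (TDR, FERONIA, THESEUS 1 and the one with the highest mean CPM, not corrected for length), the reference gene and the 2 clusters nearest to each member. The other HERK 1 and FERONIA clusters are also named, because they shared a name with those receptors. Sequences of the clusters were not used here.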

Additional observations from a re-analysis of the deposited data

Results flagged for a closer look

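EMS1/MSP1 had both LsCv libraries below, and both LsSq libraries above, both LsCK libraries, and its log2 fold change between LsCv and LsSq was -2.10. The difference itself was not tested, because the cluster was chosen on it. LsCv below and LsSq above both controls was seen in 4.6% of all tested clusters. That order was favoured by choosing the cluster for lying lower in LsCv than in LsSq, so nothing is read from this share.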

How the results depend on the processing

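Over 288 alternative values of the members' log2 fold changes, 279 kept their direction. Of the 9 that reversed, 6 were among the 108 values with a library left out. The 288 include the comparisons that chose the clusters and libraries left out of the group not compared, so the count does not measure reliability. In LsSq against LsCK, PXY (0.03) became -0.02 with DESeq2 on the groups compared and -0.03 with no filter on low counts, and PNP (-1.28) became 0.49 with the replicate block. Leaving out 1 library gave, in LsSq against LsCK, -0.18 to 0.21 for PXY, -0.34 to 1.19 for EPF/EPFL, -3.23 to 0.39 for CIF and -2.61 to 2.65 for PNP (the last a lower bound, without the first LsCK library), and -1.50 to 0.88 for CIF in LsCv against LsSq. For the cause, nothing beyond leaving out the libraries was tested. Without the second LsCK library the CrRLK1L medians of -1.25 and -1.34 became 0.56 and 0.65. Over 45 alternative counts of members called, 43 were 0. The others were 1 in LsCv against LsCK with DESeq2 on all libraries (PXY), against 1.53% of all clusters, and 1 in LsCv against LsSq with DESeq2 on the groups compared (PNP), against 10.8%. Nothing is read from either count against its share, because the members were chosen by measured values, and the cause was not tested. The main edgeR test called 0.0% of all tested clusters in each comparison, so a count of 0 is not a result about the members.

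Replicate numbers are shared by the groups, but nothing in the labels ties them to a batch, and there are only 2 pairs per comparison. Deviations of same-numbered libraries correlated at 0.23 (LsCK and LsCv), 0.26 (LsCK and LsSq) and 0.22 (LsCv and LsSq). With the replicate block edgeR called 0 members in each of the 3 comparisons. Without the block it called 0 members too, and 0.0% of all tested clusters. At an unadjusted p under 0.05 the block gave 2 of 4, 1 of 4 and 0 of 2 members, against 11.8%, 6.32% and 19.4% of all tested clusters. The choice of the members bears on these counts too, so nothing is read from them against the shares. The number of clusters under that p went from 2458 to 3319, from 1310 to 1780 and from 4496 to 5455.

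Without scaling factors the median of all clusters moved to -0.20 in LsCv against LsCK and in LsCv against LsSq, and clusters at an unadjusted p under 0.05 split into 406 higher and 2137 lower in the first, against 672 and 1786. With a single LsCK, LsCv or LsSq library left, that library was assumed to vary like the other groups. CIF had 5 to 79 counts per library, and the part of depth in its spread was not tested.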
